A study of Mus musculus with 15 samples.

Results

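Connexins are the protein subunits of gap junctions, the channels that join the cytoplasm of neighboring cells. Connexins of the vessel wall and its stroma were followed here through 5 genes, *Gja1*, *Gja4*, *Gja5*, *Gjc1* and *Gjb2*, chosen by symbol from the 20 mouse connexin genes among the 53465 genes of the table. RNA was sequenced from host cells of tumors raised from B16-F0, a mouse melanoma cell line, in CAG-GFP mice, whose own cells carry GFP throughout. Tumors were collected on day 15 from mice aged 8 to 14 weeks, and host cells (GFP+, Lin-, CD34+) were sorted into endovascular progenitors (EVP; CD31lo VEGFR2lo), transit amplifying cells (TA; CD31int VEGFR2lo) and definitive differentiated cells (D; CD31hi VEGFR2hi), with 5 libraries in each population. The 3 populations thus share the host transgene, the tumor and the day, and differ in the CD31 and VEGFR2 gates. Whether the 5 libraries of a population came from separate mice or from pooled mice is not stated, so p-values measure only the spread between libraries.

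Gap junctions pass ions and small metabolites, and in vessels they carry signals along the endothelium and between endothelial and smooth muscle cells. *Gja1* encodes connexin 43, present in endothelium, fibroblasts and many other cells. *Gja4* and *Gja5* encode connexin 37 and connexin 40, the connexins best known from arterial endothelium. *Gjc1* encodes connexin 45, a connexin of vascular smooth muscle and pericytes. *Gjb2* encodes connexin 26, better known from epithelia and the inner ear than from vessels.

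In D cells *Gja1*, *Gja4* and *Gja5* were all higher than in EVP cells, by between 2.90-fold and 32.9-fold, while *Gjb2* was 3.26-fold higher in EVP cells. TA cells had *Gja1* and *Gja5* below D cells and *Gjb2* above them. *Gjc1* had its highest values in TA libraries and fell just short of the threshold between TA and D in limma. It was called there under 5 of 11 other settings of the analysis, edgeR and DESeq2 among them. In single TA libraries *Gja4* reached the level of D, and in none of them did *Gja5*.

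The genes lie apart in the genome. On GRCm38 the annotation places *Gja1* at chr10:56377330-56402513 on the plus strand, *Gja4* at chr4:127311421-127314039 on the minus strand and *Gjc1* at chr11:102799579-102819700 on the minus strand. *Gja5* spans chr3:96904693-97077416 on the plus strand and *Gjb2* spans chr14:57098600-57104702 on the minus strand. Exons of *Gja5* share 165 bases with *Gpr89* on the opposite strand, and reads there cannot be told apart because the library kit does not mark strand. The other 4 genes have no exon that overlaps another gene. RefSeq promoters (GRCm38.p6) were available for 4 of the 5 genes, as windows from 250 bases before to 50 bases after the annotated start, written 5′ to 3′ on the strand of the gene. For *Gja5* this start lies inside the gene span given above and not at its first base (96904693), where no window was searched. For *Gja1* the start used lies before the first base of the gene span (56377330), which falls inside the window. The windows are shown because the 3 genes highest in D and the 1 lowest in D could share or differ in simple sequence features. Capitals mark letters searched on both strands for AP-1 (TGANTCA), Sp1 (GGGCGG), Sox (ACAAT), Ets (AGGAAG) and Rbpj (GTGGGAA), none of which overlap here.
Gja1, chr10:56377050-56377349, plus strand: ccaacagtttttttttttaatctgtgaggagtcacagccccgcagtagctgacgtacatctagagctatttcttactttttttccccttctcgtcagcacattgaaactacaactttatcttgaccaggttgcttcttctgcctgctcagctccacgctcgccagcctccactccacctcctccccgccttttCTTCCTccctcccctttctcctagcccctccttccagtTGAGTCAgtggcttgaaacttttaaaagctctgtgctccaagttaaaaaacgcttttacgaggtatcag
Gja4, chr4:127313990-127314289, minus strand: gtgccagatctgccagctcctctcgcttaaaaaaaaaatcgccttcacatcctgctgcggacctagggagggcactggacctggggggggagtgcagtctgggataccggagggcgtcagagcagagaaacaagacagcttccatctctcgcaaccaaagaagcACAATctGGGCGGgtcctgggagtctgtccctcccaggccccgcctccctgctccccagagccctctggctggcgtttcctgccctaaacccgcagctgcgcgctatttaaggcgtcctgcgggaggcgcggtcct
Gja5, chr3:97032152-97032451, plus strand: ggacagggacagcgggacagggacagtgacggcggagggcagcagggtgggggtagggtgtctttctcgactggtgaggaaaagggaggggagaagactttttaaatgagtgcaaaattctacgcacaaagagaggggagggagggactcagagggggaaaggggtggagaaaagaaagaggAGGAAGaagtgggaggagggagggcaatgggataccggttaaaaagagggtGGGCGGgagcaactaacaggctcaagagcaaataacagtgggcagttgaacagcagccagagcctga
Gjb2, chr14:57104653-57104952, minus strand: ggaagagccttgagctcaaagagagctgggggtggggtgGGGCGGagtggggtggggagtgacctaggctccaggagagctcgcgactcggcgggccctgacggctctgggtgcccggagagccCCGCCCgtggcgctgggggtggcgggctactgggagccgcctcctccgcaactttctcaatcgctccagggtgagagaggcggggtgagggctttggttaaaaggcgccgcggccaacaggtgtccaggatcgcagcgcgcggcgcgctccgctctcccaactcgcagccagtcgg

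The 4 windows differed in base composition and in the letters they hold. GC content was 47.7% for *Gja1*, 55.7% for *Gja5*, 62.0% for *Gja4* and 70.0% for *Gjb2*, beside a median of 52.7% over 32851 promoters. The AP-1 letters occurred in *Gja1*, beginning 19 bases before the start, and are present in 7.81% of all promoters. The Sp1 letters occurred once in *Gja4* and in *Gja5*, at 79 and 17 bases, and at 211 and 126 bases in *Gjb2*, and 35.7% of all promoters hold them. The Ets letters stood at 57 bases in *Gja1* and at 68 bases in *Gja5* (35.4% of all promoters). The Sox letters stood at 86 bases in *Gja4* (31.0% of all promoters). The Rbpj letters, held by 6.38% of all promoters, were in none of the 4 windows. None of the motifs searched was common to the windows of *Gja1*, *Gja4* and *Gja5*.

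Reads assigned to genes numbered 5394356 to 26513073 in single libraries (median 19049194). A limit of detection of 3 reads, which covers counting error only, ranged from 1.81 normalized counts (D replicate 5) to 10.5 (EVP replicate 1). Marker transcripts were measured beside the sort labels. The summed normalized count of 8 endothelial markers ranged from 75519 to 123747 in D, from 5188 to 54136 in TA and from 2183 to 3952 in EVP, where *Erg* was at 0 in 1 library. The summed count of 8 fibroblast markers, *Col1a1* and *Pdgfra* among them, ranged from 840558 to 1494780 in EVP, from 190986 to 606223 in TA and from 979 to 4065 in D. EVP thus had the highest fibroblast and the lowest endothelial sums, D the reverse, and TA stood between them. Some TA libraries stood apart. TA replicate 5 had the highest sum of 9 mural (pericyte and smooth muscle) markers, 156963 against 6212 to 40146 in the other TA libraries. TA replicate 2 had the highest keratinocyte sum (92030) and TA replicate 3 the highest melanoma sum (175671). In sorted bulk RNA, fewer cells of a type and less RNA per cell cannot be told apart.

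*Gja1* had the highest counts of the 5 genes in every library. It measured 8486, 16335, 19614, 20395 and 10792 normalized counts in EVP replicates 1 to 5. In TA replicates 1 to 5 it measured 28312, 10060, 19219, 17664 and 5525. In D replicates 1 to 5 it measured 41689, 39683, 41418, 48206 and 48194. All D libraries stood above all others, and D was the tightest group, while EVP and TA overlapped throughout. The mean in D was 43838 ± 4056 (SD, n = 5), 2.90-fold that of EVP (15125 ± 5297, n = 5) and 2.71-fold that of TA (16156 ± 8798, n = 5). On the log2 scale the difference between EVP and D was -1.61 (SE 0.34, adjusted p = 0.00216 in limma) and that between TA and D was -1.64 (SE 0.34, adjusted p = 0.00344). EVP and TA differed by 0.03 (SE 0.34, adjusted p = 0.997), a value whose sign changed with the scaling of the libraries.

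**Figure D1:**
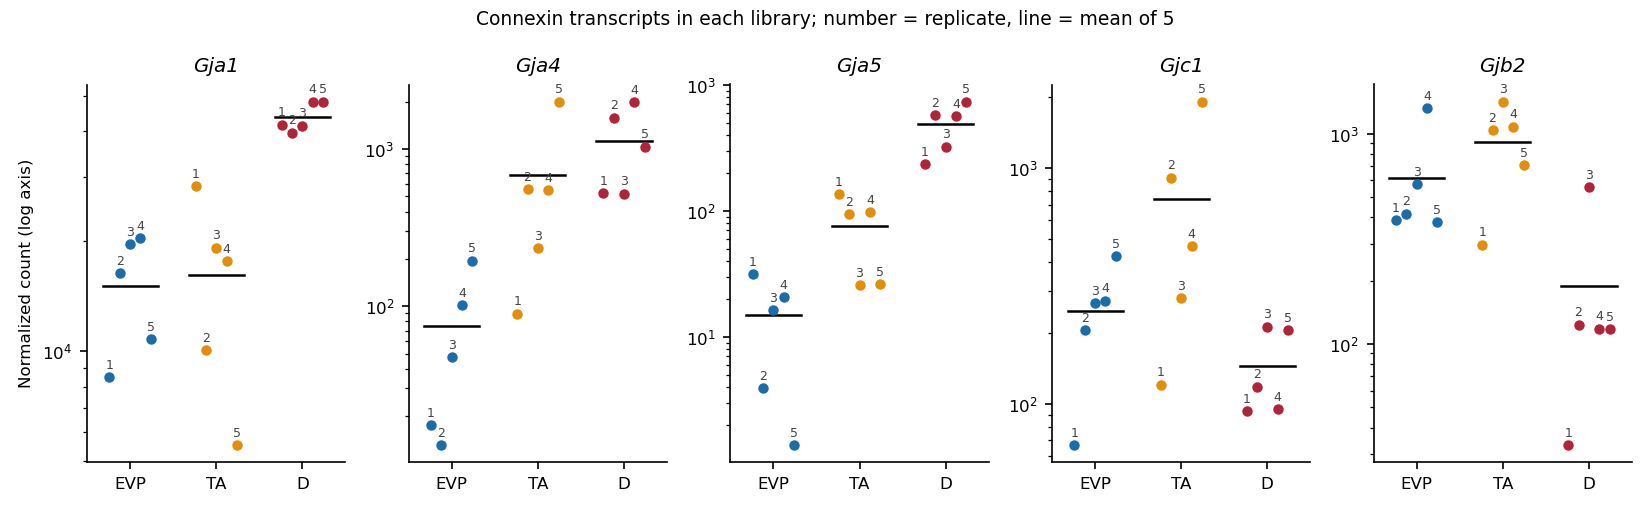
Normalized count (log axis) of each gene in each library of EVP, TA and D cells, where points are libraries numbered by replicate and lines are means of 5. *Gja1* and *Gja5* in D stand above every other library, while TA replicate 5 is the highest TA library for *Gja4* (1996) and *Gjc1* (1913) and the lowest for *Gja1* (5525).

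*Gja4*, the connexin 37 gene, spread more widely. It measured 17.6, 13.1, 47.4, 101.5 and 195 normalized counts in EVP replicates 1 to 5, from 5 to 282 reads. In TA replicates 1 to 5 it measured 89.6, 557.3, 234.4, 546.9 and 1996. In D replicates 1 to 5 it measured 524.4, 1578, 518.2, 1991 and 1031. Every D library exceeded every EVP library, whereas TA ran from within the EVP range to just above the highest D library. D had 15.1-fold the mean of EVP (1129 ± 650.5 against 74.9 ± 75.8, n = 5 each), with a log2 difference of -4.35 (SE 0.78, adjusted p = 4.75e-04 in limma). TA had 9.14-fold the mean of EVP (684.9 ± 760.4, n = 5), with a log2 difference of -3.13 (SE 0.78, adjusted p = 0.0332). TA and D were not separated (log2 difference -1.22, SE 0.78, adjusted p = 0.407).

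The difference of *Gja4* between EVP and TA was not stable. Without TA replicate 5 the fold of the means fell to 4.77 and the log2 difference to -2.57 (adjusted p = 0.0592 in limma). The call was also lost without EVP replicate 1 (adjusted p = 0.0771), EVP replicate 2 (0.107), EVP replicate 3 (0.0735), TA replicate 2 (0.0595) or TA replicate 4 (0.0708), and with edgeR on whole reads (0.0648). The higher level in D than in EVP kept its call without each of the 15 libraries, at log2 differences of -4.85 to -3.90, and without EVP replicate 5 the means differed 25.1-fold (15.3-fold between EVP and TA). Without TA replicate 5, TA and D differed by -1.78 on the log2 scale (adjusted p = 0.156) and by 3.16-fold in their means.

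*Gja5*, the connexin 40 gene, had the lowest counts of the 5 genes on average in EVP and TA, and the steepest difference. It measured 31.6, 3.92, 16.4, 20.8 and 1.38 normalized counts in EVP replicates 1 to 5, and only 3 of these libraries held more than 3 reads. In TA replicates 1 to 5 it measured 136.2, 94.1, 25.7, 97.9 and 26.2. In D replicates 1 to 5 it measured 236.1, 575.5, 322.8, 564.2 and 736.7. D was separate from both other populations, and the lowest TA libraries fell just below the highest EVP library. That library, EVP replicate 1, held 9 reads of *Gja5*. It was the shallowest of all (5394356 reads) and had the most genes above 0 (39556). The next highest EVP library was at 20.8. D had 32.9-fold the mean of EVP (487.1 ± 203.7 against 14.8 ± 12.4, n = 5 each), with a log2 difference of -5.39 (SE 0.69, adjusted p = 1.52e-05 in limma). D had 6.41-fold the mean of TA (76.0 ± 48.6, n = 5), with a log2 difference of -2.85 (SE 0.69, adjusted p = 0.00996). The log2 difference between EVP and TA was -2.53 (SE 0.69, adjusted p = 0.0531), just short of the threshold of 0.05. It was called under 4 of 11 other settings, DESeq2 on whole reads among them (adjusted p = 0.00449). Of the 15 limma fits that left out 1 library, 3 called it. These were the fits without EVP replicate 1 (adjusted p = 0.0283), TA replicate 3 (0.0491) or TA replicate 5 (0.0316). The highest adjusted p of the 15 was 0.149.

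The 2 arterial connexins kept different proportions in different libraries. In D the normalized count of *Gja4* was 1.40 to 3.53 times that of *Gja5*. In TA replicates 1 to 4 the ratio was 0.658 to 9.13, and in TA replicate 5 it was 76.3. In EVP replicate 5, which had the highest *Gja4* of its population, 282 reads of *Gja4* stood beside 2 of *Gja5*. These ratios are within a library and do not compare the levels of the genes, whose lengths differ.

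*Gjc1*, the connexin 45 gene, was highest in TA libraries without passing the test in limma. It measured 66.7, 205.1, 267.5, 274.1 and 421.8 normalized counts in EVP replicates 1 to 5. In TA replicates 1 to 5 it measured 120.7, 910.7, 280.1, 467.0 and 1913. In D replicates 1 to 5 it measured 93.4, 118.4, 212.6, 94.7 and 204.9. Apart from replicate 1, every TA library stood above every D library, and the EVP range overlapped both. The mean in TA (738.3 ± 720.2, n = 5) was 5.10-fold that in D (144.8 ± 59.3, n = 5), with a log2 difference of 1.84 (SE 0.62, adjusted p = 0.0609 in limma). It passed without EVP replicate 1 (adjusted p = 0.0368). Without TA replicate 1 the difference was 2.34 (adjusted p = 0.00802), and without TA replicate 5 it was 1.35 (adjusted p = 0.159) with 3.07-fold between the means. It passed with edgeR (adjusted p = 0.0322) and DESeq2 (0.00136) on whole reads. Counted over all fits, it passed under 5 of 11 other settings and in 2 of the 15 fits that left out 1 library. The level in EVP (247.1 ± 128.4, n = 5) did not differ from TA (log2 difference -1.20, SE 0.62, adjusted p = 0.376) or D (0.64, SE 0.62, adjusted p = 0.611) beyond the spread between libraries.

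*Gjb2*, the connexin 26 gene, ran opposite to the 3 alpha connexins. It measured 386.2, 415.4, 574.3, 1324 and 380.3 normalized counts in EVP replicates 1 to 5. In TA replicates 1 to 5 it measured 296.5, 1039, 1419, 1077 and 708.0. In D replicates 1 to 5 it measured 32.9, 123.3, 555.0, 117.9 and 117.2. D replicate 3 alone reached into the range of the other populations, since the other D libraries were all below every EVP and TA library. The mean in EVP (616.1 ± 403.7, n = 5) was 3.26-fold that in D (189.3 ± 207.9, n = 5), with a log2 difference of 2.09 (SE 0.59, adjusted p = 0.0166 in limma). The mean in TA (907.9 ± 424.4, n = 5) was 4.80-fold that in D, with a log2 difference of 2.66 (SE 0.59, adjusted p = 0.00518). EVP and TA did not differ beyond their spread (log2 difference -0.57, SE 0.59, adjusted p = 0.788).

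The 2 differences of *Gjb2* from D were not equally firm. That of TA was called without each of the 15 libraries, at log2 differences of 2.19 to 3.20. That of EVP was lost without EVP replicate 4 (log2 difference 1.77, adjusted p = 0.0531 in limma) and with edgeR on whole reads (1.65, adjusted p = 0.0965). Without D replicate 3 the means differed 6.30-fold from EVP and 9.28-fold from TA. D replicate 3 also had the highest melanoma marker sum of D (47767 against 18157 to 31913), and TA replicate 3, the TA library with the most *Gjb2*, had the highest melanoma sum of all. In EVP the values ran differently, since replicate 4, the highest in *Gjb2*, had a melanoma sum of 37457, and replicate 5, the lowest in *Gjb2*, had the highest sum (67272). Within populations *Gjb2* and the melanoma sum had a correlation of 0.39 over 15 libraries on log2 values. The part of melanoma RNA in these values was not tested.

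Counted together, 4 of the 5 genes differed between EVP and D, 3 higher in D and 1 higher in EVP, where 19.0% of the 25549 genes tested differed (7.46% higher in D and 11.6% higher in EVP). Between EVP and TA 1 of 5 was called, higher in TA, beside 3.5% of all genes (1.94% toward TA and 1.56% toward EVP), and this count went from 0 to 2 under other settings. Between TA and D 3 of 5 were called, 2 higher in D and 1 higher in TA, beside 12.5% of all genes (4.31% higher in D and 8.21% higher in TA). The libraries of the 2 populations did not overlap for *Gja1*, *Gja4* and *Gja5* between EVP and D (17.7% of all genes), and for *Gja1* and *Gja5* between TA and D (9.25% of all genes). No member was free of overlap between EVP and TA (4.29% of all genes). The median log2 difference of the 5 genes was -1.61 between EVP and D, -1.20 between EVP and TA and -1.22 between TA and D, beside 0.46, 0.085 and 0.24 over all genes tested. Each comparison shares libraries with the other 2, so the counts are not independent.

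**Figure D2:**
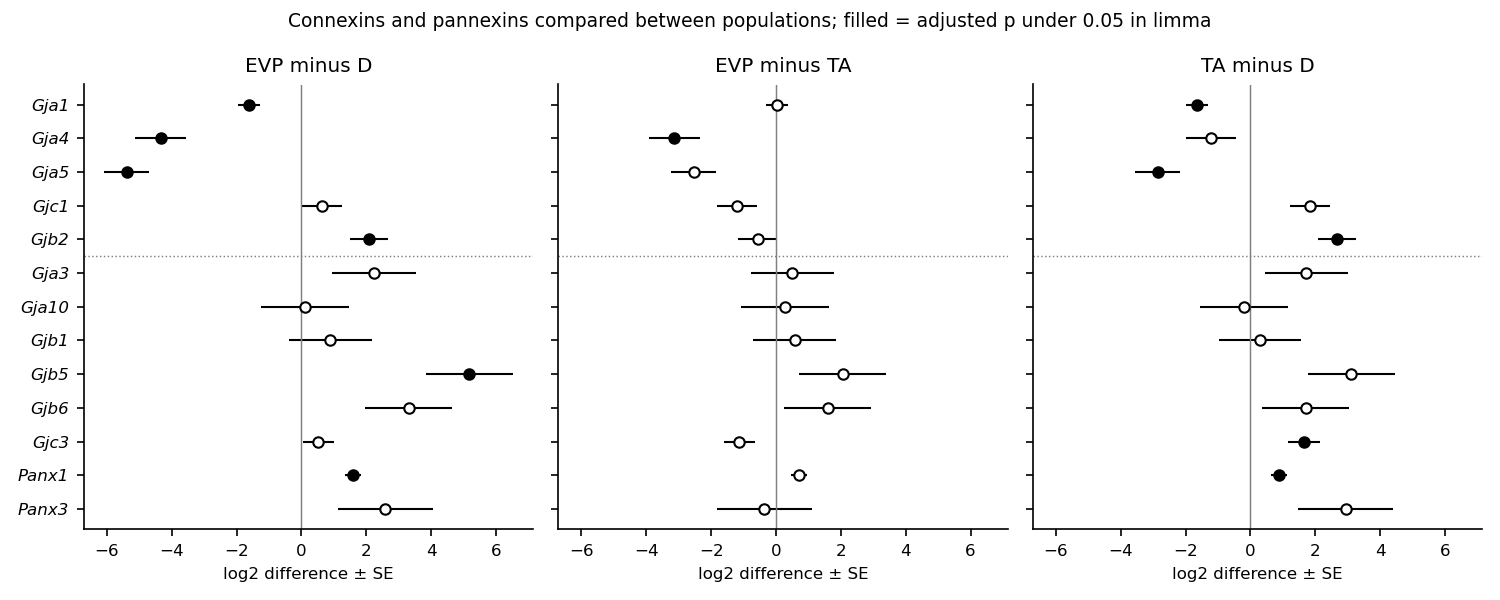
Log2 difference between populations (first minus second, bars are SE) for the 5 connexins above the dotted line and for 6 other connexins and 2 pannexins below it, with filled points at adjusted p under 0.05 in limma. *Gja1*, *Gja4* and *Gja5* lie left of 0 and *Gjb2* right of 0 in the comparison of EVP with D, and *Gjb5*, also called there, lies right of 0.

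The rest of the family was mostly near the limit of detection. Of the 20 connexin genes 13 were abundant enough to test, the 5 genes above and 8 others. Between EVP and D 6 of the 13 were called, 3 in each direction. *Gjb5*, the connexin 31.1 gene, best known from the epidermis and the placenta, was higher in EVP, as *Gjb2* was. It measured 169.2 ± 76.7 in EVP and 12.3 ± 17.8 in D, where 2 of 5 libraries were at 0 (log2 difference 5.17, SE 1.34, adjusted p = 0.00996 in limma). edgeR on whole reads did not call it, and the fitted size of a difference at such low counts depends on the pseudocount. Without D replicate 1 the mean of *Gjb5* in D was 5.43, and the call held without each library. Between TA and D 5 of the 13 were called, 3 higher in TA and 2 higher in D. *Gjc3*, known from glial cells, was higher in TA, as *Gjb2* was (120.2 ± 98.0 against 31.0 ± 4.70, adjusted p = 0.0309), and lost its call with quantile normalization. Without TA replicate 3, its highest library, the fold of the *Gjc3* means went from 3.88 to 2.48 (adjusted p = 0.0725), and the call was lost without any 1 of 6 of the 15 libraries (TA replicates 3 and 5 and D replicates 2 to 5). Between EVP and TA 1 of the 13 was called, *Gja4*.

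Keratinocyte markers moved with part of the *Gjb5* values. TA replicate 2, with the highest keratinocyte sum (92030), also had the highest *Gjb5* (351.6) of the 15 libraries. In TA replicate 3, however, *Gjb5* was at 0 with a keratinocyte sum of 13909, and in TA replicate 1 it was 79.3 at a sum of 21262. In EVP replicate 5 *Gjb5* was 271.7 at a keratinocyte sum of 1794, and in D replicate 1 it was 39.8 at a sum of 3329. The keratinocyte sum ranged from 1794 to 10305 in EVP and from 122 to 3329 in D, with *Krt1* at 0 in 2 D libraries. All 8 keratinocyte markers were higher in TA than in D, and 3 of 8 were higher in EVP than in D. Between TA and D the calls of *Krt1* and *Krt10* were each lost without any 1 of 5 of the 15 libraries. That of *Krtdap* was lost without any 1 of 7 (adjusted p up to 0.120 in limma). Between EVP and D the call of *Krt14* was lost without any 1 of 3 (up to 0.0704). The part of keratinocyte RNA in *Gjb5* was not tested.

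Levels of different genes were compared per length, as each gene's share of the summed normalized count per kb of exon over all 20 connexins. *Gja1* took 82.8% ± 5.43 of this sum in D, 69.9% ± 8.41 in EVP and 52.3% ± 23.9 in TA (SD, n = 5 each). *Gja4* followed in D with 12.5% ± 6.24, and took 2.23% ± 2.58 in EVP and 15.1% ± 17.8 in TA. *Gjb2* followed in EVP with 11.8% ± 4.59, and took 13.3% ± 6.34 in TA and 1.58% ± 1.88 in D. *Gja5* never reached a mean above the 1.60% ± 0.572 of D, and *Gjc1* took 5.44% ± 5.66 in TA, 2.40% ± 1.46 in EVP and 0.566% ± 0.246 in D. The 5 genes together made up 99.0% ± 0.827 of the connexin level in D, 86.5% ± 7.58 in EVP and 86.7% ± 11.2 in TA.

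**Figure D3:**
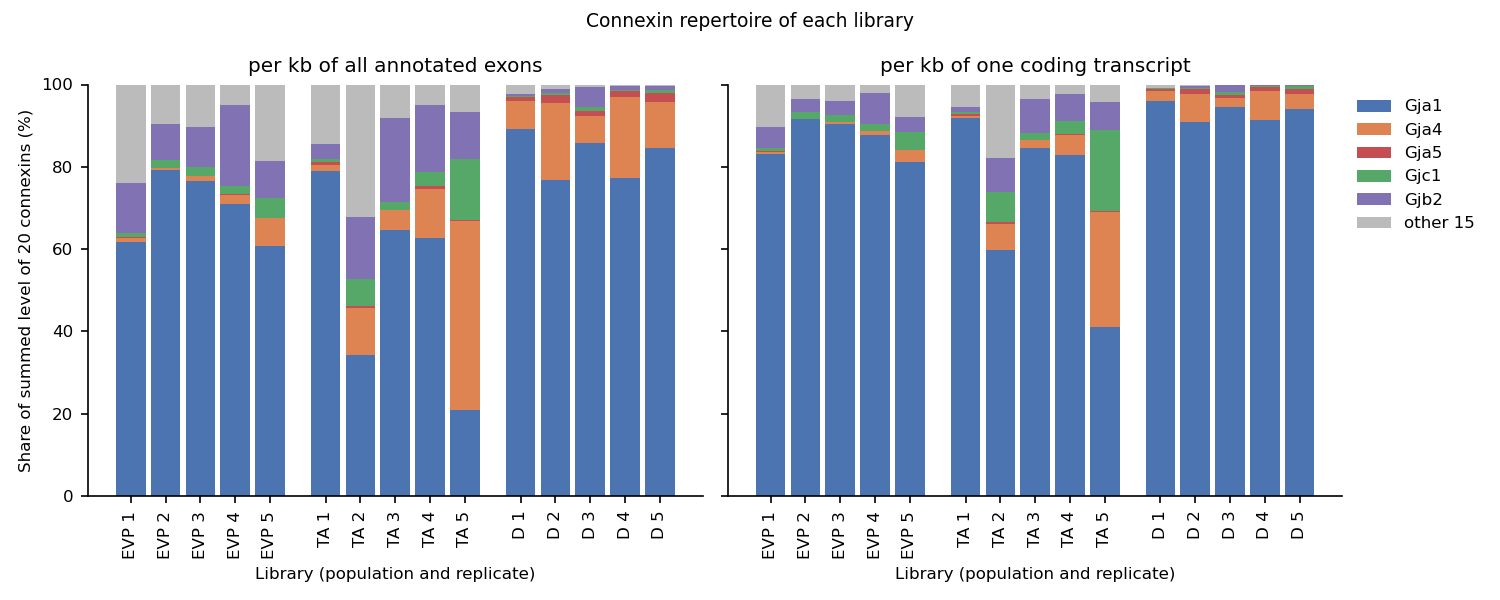
Share (%) of each gene in the summed level of 20 connexins in each library, per kb of all annotated exons (left) and per kb of the transcript with the longest coding sequence (right). *Gja1* fills most of every D bar, the other 15 connexins are widest in TA replicate 2, and *Gja4* and *Gjc1* are widest in TA replicate 5.

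The length used matters for *Gja1*, whose annotated exons add up to 10257 bases while its transcript with the longest coding sequence has 3182. With the transcript length *Gja1* took 93.3% in D, 86.8% in EVP and 72.0% in TA, and led in all 15 libraries. With the exon length it led in 14 of 15, since in TA replicate 5 *Gja4* took 46.0% and *Gja1* 20.9% (28.0% and 41.1% with the transcript length). In D *Gja4* was the next connexin in all 5 libraries with either length, and with coding length in 4 of 5, with *Gjb2* next in D replicate 3. In EVP *Gjb2* was next in 5 libraries with the exon length and in 4 with the transcript length.

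The members also moved with marker transcripts across the 15 libraries, which share depth and population, so that correlations are given as descriptions on log2 values. *Gja5* followed the endothelial sum (r = 0.89), which includes the genes of the sorting antigens CD31 and VEGFR2. Within populations, after subtraction of their means, the correlation was 0.26. *Gja1* followed the endothelial sum both across libraries (r = 0.80) and within populations (0.84). *Gjc1* followed the mural sum, at 0.91 across libraries and 0.86 within populations. *Gja4* had 0.38 with the mural sum across libraries and 0.86 within populations, beside 0.68 and -0.42 with the endothelial sum. TA replicate 5 shows the contrast, with the highest *Gja4* of all 15 libraries, the highest mural sum (156963) and the lowest endothelial sum of TA (5188). D replicate 4 held a similar *Gja4* (1991) at a mural sum of 10889 and an endothelial sum of 123747, and the other D libraries held 518.2 to 1578 at mural sums of 5212 to 10371. The part of mural cells in the *Gja4* and *Gjc1* of TA and EVP libraries was not tested. Of the 9 mural markers 6 were higher in TA than in D. Between EVP and D 4 were higher in EVP (*Cspg4*, *Acta2*, *Notch3* and *Pdgfrb*) and 2 higher in D (*Kcnj8* and *Abcc9*, subunits of a potassium channel of pericytes). Of these, the calls of *Acta2* and *Notch3* were each lost without any 1 of 4 of the 15 libraries (adjusted p up to 0.0901 and 0.0743 in limma). No mural marker was at 0 in any library, but *Cspg4* fell to 1 read in D and *Myh11* to 2 reads in EVP, below the limit of 3 reads.

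**Figure D4:**
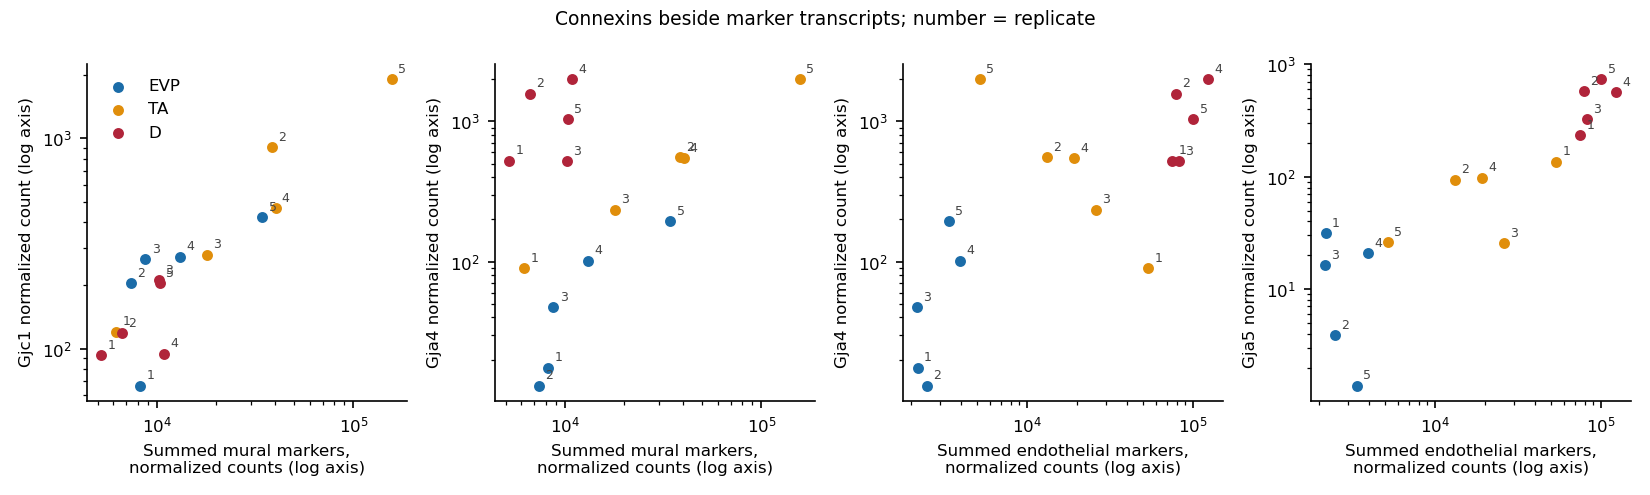
Normalized count of *Gjc1*, *Gja4* and *Gja5* (log axis) against the summed normalized count of 9 mural or 8 endothelial markers (log axis), 1 point per library numbered by replicate. *Gjc1* is highest in TA replicate 5, at the highest mural sum, while *Gja4* is similar there (1996) and in D replicate 4 (1991) at mural sums of 156963 and 10889.

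The genes with the most similar profiles, among 12182 genes with a mean of at least 50, were different for each connexin. *Gja1* was closest to *Lamc1*, a laminin chain gene (r = 0.96 over 15 libraries), followed by *Mansc1*, *Ramp2*, *Rapgef1* and *Midn*. *Gja4* was closest to *Mylk*, the gene of myosin light chain kinase (r = 0.92), followed by *Sh2b3*, *Tnfrsf21*, *Fam107b* and *Emid1*. *Gja5* was closest to *Arrb1*, an arrestin gene (r = 0.94), followed by *Eva1c*, *Hs3st3b1*, *Sipa1l2* and *Eva1a*. *Gjc1* was closest to *Tusc5* (r = 0.95) and *Dlk1*, then to the pericyte marker *Rgs5* (r = 0.90), *Pdgfa* and *Atp1b2*. *Gjb2* was closest to the immunoglobulin gene *Iglc2* (r = 0.92), followed by *Coq8a*, *Prkcd*, *Sdsl* and *Hvcn1*. *Iglc2* was low in D (4.19 ± 5.71) and uneven in TA (615.3 ± 1108). These correlations include the differences between populations. After subtraction of the population means they ran from 0.51 (*Eva1a* with *Gja5*) to 0.92 (*Tusc5* with *Gjc1*).

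Genes whose products bind or move connexins were listed as context. Of 7 such genes 5 differed between EVP and D. *Tjp1*, encoding the scaffold ZO-1 that binds connexin 43, was 7.50-fold higher in D (2853 ± 500.3 against 380.2 ± 97.3, log2 difference -2.92, SE 0.35, adjusted p = 7.47e-06 in limma). *Cav1*, the caveolin gene, was 3.91-fold higher in D (adjusted p = 1.62e-04). *Nov*, encoding the secreted CCN3 protein that binds connexin 43, ran the other way, at 5068 ± 3666 in EVP, 1193 ± 874.9 in TA and 28.0 ± 15.8 in D (log2 difference of EVP from D 7.39, SE 0.48, adjusted p = 5.43e-09). *Ezr*, the ezrin gene, was also higher in EVP than in D (486.5 ± 165.4 against 216.5 ± 35.1, adjusted p = 0.0123). *Cnst* and *Dbn1* were not called in any comparison. Between EVP and TA 3 of 7 were called (1 higher in EVP, *Nov*, and 2 higher in TA, *Tjp1* among them), and between TA and D 4 of 7 (*Nov* and *Ezr* higher in TA, *Tjp1* and *Cav1* higher in D). Between EVP and TA the call of *Tjp1* was lost without any 1 of 12 of the 15 libraries (adjusted p up to 0.110) and that of *Nov* without any 1 of 5 (up to 0.0668).

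Pannexins form channels in the plasma membrane but not gap junctions. *Panx1* measured 816.7 ± 119.4 normalized counts in EVP, 521.1 ± 199.9 in TA and 269.0 ± 42.6 in D. It was higher in EVP than in D in all 25 pairs of libraries (log2 difference 1.60, SE 0.24, adjusted p = 9.36e-05 in limma) and higher in TA than in D (0.88, SE 0.24, adjusted p = 0.0230). The latter call was lost without TA replicate 2 (adjusted p = 0.0573), TA replicate 5 (0.0673), D replicate 3 (0.0592) or D replicate 4 (0.0513). EVP and TA were not separated (0.72, SE 0.24, adjusted p = 0.129). *Panx3* passed no test and *Panx2* was too low to test.

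Arterial genes other than the connexins followed *Gja4* and *Gja5* in direction, but so did venous genes. Of 8 arterial genes 7 exceeded EVP levels in D, among them the Notch ligand gene *Dll4* (105.6-fold, adjusted p = 3.76e-06 in limma) and *Sox17* (98.9-fold, adjusted p = 7.77e-06), and *Bmx* was not called. The size of these folds depended on single EVP libraries, at 198.4-fold for *Dll4* without EVP replicate 5 and 171.6-fold for *Sox17* without EVP replicate 1. Of 4 venous genes 3 did so too, *Emcn* (107.9-fold, and 176.2-fold without EVP replicate 5), *Nrp2* (7.68-fold) and *Ephb4* (4.39-fold), and *Nr2f2* was not called. Between EVP and TA 6 of 8 arterial and 2 of 4 venous genes were higher in TA, and between TA and D 4 of 8 and 3 of 4 were higher in D. Several of these calls were lost without single libraries, *Hey1*, *Notch1*, *Notch4* and *Unc5b* between EVP and TA and *Notch1*, *Unc5b* and *Emcn* between TA and D. Of the endothelial markers themselves, 7 of 8 were higher in D than in EVP, *Pecam1* and *Kdr* of the sorting gates among them. The exception was *Tek*, which was not called (1578 ± 747.2 in EVP and 2379 ± 681.1 in D). *Klf4*, a factor induced by flow in endothelium and present in other cells too, was higher in EVP (1742 ± 695.3) than in D (207.1 ± 80.5, adjusted p = 3.64e-05) and TA (497.8 ± 374.7, adjusted p = 0.0162), while *Klf2* was not called in any comparison. The call of *Klf4* between EVP and TA was lost without EVP replicate 2 (adjusted p = 0.0578) or EVP replicate 3 (0.0506).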

How the data were processed

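Libraries of EVP, TA and D cells (5 of each) were analyzed. Per the labels and methods, the authors prepared Smart-Seq2 and Nextera XT libraries, aligned reads with STAR 2.5.3a to GRCm38, counted them per gene (Ensembl 91) with HTSeq-count 0.6.1 and normalized with DESeq2 1.10.1. The table the authors deposited holds these normalized counts (a signal unit), that is counts divided by 1 size factor per library, and 100% gave whole reads (tolerance 1e-06). Tables of the authors' own comparisons (3, with fold changes and p-values) were not used.

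Genes with a mean of at least 5 were compared as log2(normalized count + 1) with limma 3.58.1 in R 4.3.3 (1 coefficient per population, trend, two-sided, 12 residual degrees of freedom, no block), with Benjamini-Hochberg adjustment over 25549 genes and a threshold of 0.05. This scale understates the change of low genes. Folds are ratios of mean normalized counts, and values after ± are SDs. Gene models came from GRCm38, matching 99.64% of genes. Results were recomputed with pseudocounts of 0.5 and 8, with no minimum mean or 20, with scaling to the same total, quantile normalization, array weights, 2 populations only, a replicate block, edgeR 4.0.16 or DESeq2 1.42.0 on whole reads, other gene lengths (transcript length was added after seeing the data), and without each library. The tests were tried on simulated data. Genes are named if they are members, connexins, pannexins or in a context or marker list, or if they are among the 5 genes most correlated with a member, passing over predicted genes. Values of some genes on the lists are not reported here. The members and lists were chosen with earlier results of these data known.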

Additional observations from a re-analysis of the deposited data

Results flagged for a closer look

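In each of the 15 groups of 5 libraries formed by the 5 genes and 3 populations, the highest and lowest library were compared with the nearest other, and 3 groups had a library far from the rest. Chance flags about 1 group in 20 only where values are normally distributed. The comparison used normalized counts, not the log2 values of the tests, and each flagged library was the highest of its group. The number of flags therefore cannot be weighed against that rate. *Gja4* in TA replicate 5 was 1996 normalized counts, beside 557.3 in the next TA library. *Gjb2* in EVP replicate 4 was 1324, beside 574.3 in the next EVP library. *Gjb2* in D replicate 3 was 555.0, beside 123.3 in the next D library.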

How the results depend on the processing

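The calls of *Gja1*, *Gja4* and *Gja5* between EVP and D and of *Gja1*, *Gja5* and *Gjb2* between TA and D held under all 11 other settings and without each of the 15 libraries. The 5 genes called between EVP and TA numbered 1, but 0 with no minimum mean, with edgeR and with only the 2 populations, 2 with a minimum mean of 20, scaling to the same total, quantile normalization and DESeq2, and 0 to 2 without single libraries. The same settings gave the same counts for the connexin family, except DESeq2 with 3. Between EVP and D edgeR called 3 of the family instead of 6, and between TA and D quantile normalization called 3 and array weights 8 instead of 5. *Gjc1* between EVP and D turned to -0.32 with quantile normalization, and *Gja1* between EVP and TA to -0.15 (same total), -0.22 (quantile), -0.077 (edgeR) and -0.095 (DESeq2), with -0.30 to 0.48 without single libraries or replicate 1 of all populations. The cause was not tested. Over all genes, array weights called 7609 between EVP and D and 5054 between TA and D, quantile normalization 2117 between TA and D, and DESeq2 1980 between EVP and TA, where leaving out EVP replicate 2, EVP replicate 3 or TA replicate 3 left 428, 471 and 568, and replicate 1 of every population 522.

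With coding length *Gja1* took 87.3% of the connexin level in EVP and 94.8% in D, *Gjb2* 5.88% in EVP, and *Gja4* 2.76% and *Gjc1* 0.303% in D. With the length of the transcript with the longest coding sequence *Gja1* took 86.8% in EVP and 93.3% in D, *Gja4* 4.45% and *Gja5* 0.885% in D, and *Gjb2* 4.58% in EVP and 6.27% in TA.

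Replicate numbers are shared by the populations, but same-numbered libraries did not all deviate together (correlations from -0.136 to 0.689, over 0.1 in 11 of 15), so the numbers were not taken to pair them. Replicates 1, 2, 4 and 5 correlated best with their own number in every pair of populations (12 of 15 in all) and replicate 3 in none, a hint of shared sets from the data and not from the design. With a replicate block, 5710 genes were called between EVP and D against 4859, 1262 against 893 between EVP and TA and 4047 against 3199 between TA and D. Of the 5 genes, *Gjc1* between TA and D then passed (adjusted p = 0.00902), and no other call changed. In EVP replicate 1, the shallowest library, a gene under 10.5 normalized counts rests on fewer than 3 reads.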
